A study of Homo sapiens with 4 samples.

Results

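The aminoacyl-tRNA synthetases were examined in imatinib-sensitive and imatinib-resistant leukaemia cells by RNA sequencing. The genes were taken by name from the deposited expression table: every protein-coding gene whose symbol is an amino acid letter followed by ARS, with or without a 1 or 2, together with EPRS, the phenylalanyl subunits FARSA and FARSB, FARS2 and the scaffold genes AIMP1, AIMP2 and EEF1E1. This gave 40 of the 32673 genes in the table, of which 39 are described: 18 cytosolic synthetase genes, 16 mitochondrial ones, 2 (GARS and KARS) that serve both compartments, and 3 scaffold genes. The rule uses names only. The symbols are those of the file, and newer catalogues write most cytosolic genes with a 1 at the end, as in WARS1 for WARS.

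TF1 is a human leukaemia cell line that depends on the cytokine GM-CSF. TF1-BA cells are TF1 cells that carry p210 BCR-ABL from a retrovirus and respond to imatinib, an inhibitor of the ABL kinase. TF1-BAR cells are the resistant cells obtained from them by months of continuous imatinib, so that both groups carry BCR-ABL and each is a single derived line. Per the labels, the medium held 2 ng/ml GM-CSF (the study's methods give another concentration), the BAR cells were cultured with 2 µM imatinib, and each replicate was made from 10000000 cells. There were 2 libraries for TF1-BA and 2 for TF1-BAR. The labels title the resistant libraries VECTOR beside the name TF1-BAR, and the sources do not say whether the drug was still present when RNA was taken. The resistant state, the drug and any vector therefore cannot be told apart here. Nothing says that the replicates were separate cultures, so p-values measure only the spread between these libraries.

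An aminoacyl-tRNA synthetase joins an amino acid to its tRNA, the step on which the accuracy of the genetic code rests. Cells keep 1 set of enzymes for the cytosol and another, encoded by other nuclear genes, for the mitochondria. The enzymes belong to class I or class II, which differ in the fold of the catalytic domain. In animals several cytosolic enzymes sit together with the scaffold proteins AIMP1, AIMP2 and EEF1E1 (also called AIMP3) in the multi-synthetase complex. Many cytosolic synthetase genes are known targets of ATF4, the transcription factor that is translated when eIF2 is phosphorylated, as happens when uncharged tRNA activates the kinase GCN2 (EIF2AK4).

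ATF4 binds, with C/EBP partners, a composite element whose core reads TGATGNAA. RefSeq promoter windows on GRCh38.p14, 250 bases before to 50 bases after a start, were found for 33 of the 39 genes. The core was present on 1 strand or the other in 8 of them (24.2%), against 4.46% of the 27305 genes with a window. The 8 stretches are shown so that the letters behind this count can be read. Each is written 5′ to 3′ on the strand of its gene, with the match in capitals. TTGCATCA is the core read on the other strand.

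AARS: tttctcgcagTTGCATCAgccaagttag
CARS: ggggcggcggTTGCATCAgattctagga
IARS: tttcagcgcgTTGCATCAcctccgtgcg
TARS: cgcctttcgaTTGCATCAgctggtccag
MARS: ccggttccggTTGCATCAgcgagggatt
NARS: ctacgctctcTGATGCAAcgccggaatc
GARS: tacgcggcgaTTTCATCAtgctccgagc
YARS2: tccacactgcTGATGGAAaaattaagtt

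The stretches lie at chr16:70289676-70289703 on the minus strand for AARS, chr11:3057408-3057435 minus for CARS, chr9:92293693-92293720 minus for IARS and chr5:33440957-33440984 plus for TARS. Those of the other genes lie at chr12:57488054-57488081 plus for MARS, chr18:57621805-57621832 minus for NARS, chr7:30594835-30594862 plus for GARS and chr12:32756077-32756104 minus for YARS2. Counted from the start, the match begins at position −187 in AARS, −197 in YARS2, −33 in GARS and −13 in IARS. In CARS, MARS and TARS it lies within a few bases of the start, and in NARS just after it. Of the 8 genes, IARS and TARS were upregulated in TF1-BAR cells and AARS and CARS downregulated, at a limma adjusted p under 0.05. Of all genes tested, 16.3% were higher and 10.5% lower. MARS, NARS, GARS and YARS2 did not pass the limma test, but NARS passed in 6 and GARS in 1 of 15 alternative fits. The E-box CACGTG was searched in the same way and was found in 5 of the 33 genes (15.2%), namely AIMP2, CARS2, EARS2, IARS and MARS2, against 8.77% of all genes with a window. A match in letters is not evidence of binding, and WARS, whose expression changed most, has windows without either motif. DARS, LARS, VARS, YARS, AARS2 and VARS2 have no window in the table.

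Library sizes were 18042299 and 15465497 fragments in TF1-BA and 15761642 and 16074303 in TF1-BAR. Replicates correlated at r = 0.983 over genes in TF1-BA and 0.979 in TF1-BAR on the log2 scale. All 9 markers of GM-CSF-dependent progenitors listed for this check (CSF2RA, CSF2RB, GATA1, GATA2, MYB, TAL1, CD33, KIT and CD34) were expressed. Of the 9, 5 were higher in TF1-BAR (55.6%, against 16.3% of all genes tested). CD34 and CD33, among these 5, had already been reported as upregulated in TF1-BAR by the study from its RNA sequencing. Of 11 markers of other cell types, 10 were in the table and 4 passed the filter on low values. The endothelial gene CDH5 was higher in TF1-BAR (0.733 and 0.628 FPKM in TF1-BA, 3.28 and 3.4 in TF1-BAR, log2 fold change 1.70, limma adjusted p = 0.00409). PECAM1, also an endothelial gene, had 23.4 and 23.5 FPKM in TF1-BA and 23.3 and 25.7 in TF1-BAR (log2 fold change 0.058, limma adjusted p = 0.593). The T cell gene CD3D was lower (19.2 and 20.7 FPKM against 5.74 and 6.36, log2 fold change −1.64, limma adjusted p = 0.00282). The summed FPKM of the list was 45.1 and 46.6 in TF1-BA and 33.5 and 36.9 in TF1-BAR. COL1A2, KRT19 and CD3E had at most 1 fragment in any library. The part of these differences in the results was not tested.

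Levels are given in FPKM, fragment numbers divided by transcript length and library size, which allows genes of different length to be compared. In TF1-BA cells 30 of the 39 genes lay above 6.37 FPKM, the median of the protein-coding genes tested, and in TF1-BAR cells 29 lay above the corresponding 6.59 FPKM. WARS, the cytosolic tryptophanyl enzyme, had the highest level in each line, at 237 ± 12.8 FPKM in TF1-BA and 151 ± 8.11 in TF1-BAR (SD, n = 2). GARS, the glycyl enzyme, followed at 146 and 135 FPKM, then AARS, the alanyl enzyme, at 141 and 111, and FARSA, the catalytic subunit of the phenylalanyl enzyme, at 118 and 110. The lowest was the mitochondrial seryl gene SARS2, which had 0.36 and 0.26 FPKM in TF1-BA and 0.412 and 0.501 in TF1-BAR. It fell under the filter on low values and was not tested. In the order of mean levels, 15 of the 38 neighbouring pairs had overlapping libraries in TF1-BA and 14 of 38 in TF1-BAR, so that GARS and AARS, for example, did not differ beyond their spread in TF1-BA.

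**Figure D1:**
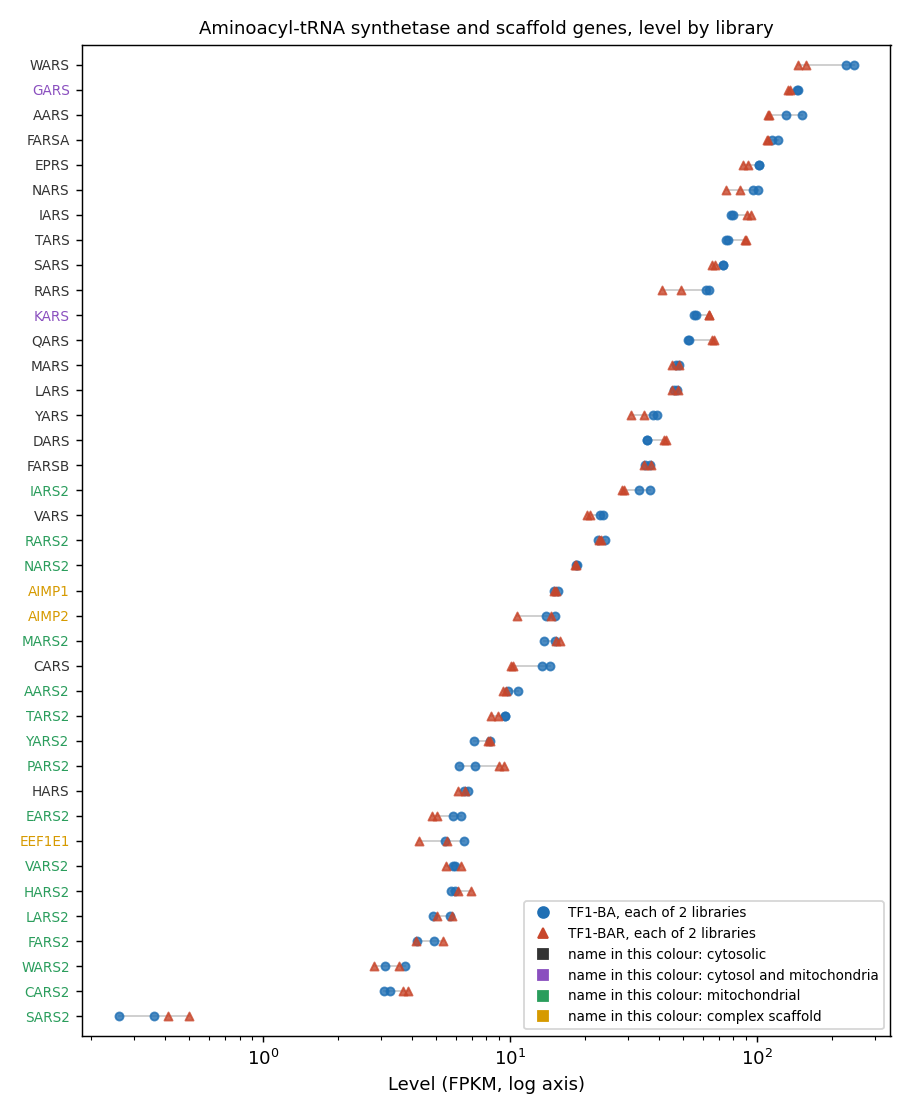
Level of each of the 39 genes in each library, in FPKM on a log axis. Circles are the 2 TF1-BA libraries and triangles the 2 TF1-BAR libraries, genes are ordered by mean level, and the colour of the name gives the compartment; WARS is at the top of the order and SARS2, below 1 FPKM, at the bottom.

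The synthetase genes that changed did so in opposite directions and by less than 2-fold. Of the 38 genes tested with limma on log2(FPKM + 0.5), 10 (26.3%) were called, that is, had an adjusted p under 0.05, close to the 26.9% of all 15519 genes tested and the 29.1% of protein-coding genes. QARS, TARS, DARS, IARS and PARS2 were upregulated, which is 13.2% of the genes against 16.3% of all genes. WARS, RARS, CARS, AARS and IARS2 were downregulated, which is 13.2% against 10.5%. The number past both thresholds (adjusted p under 0.05 and a change of 1 or more in size on the log2 scale) was 0, against 737 or 4.75% of all genes, since the log2 fold changes ran from −0.65 in WARS to 0.44 in PARS2. By limma voom on recovered fragments it was also 0. At an unadjusted p under 0.05 there were 6 higher and 10 lower genes, against 25.5% of all genes higher and 16.7% lower. The median log2 fold change was −0.037, beside 0.066 over all genes and 0.037 over protein-coding genes. Libraries of the 2 lines did not overlap for 24 of the 38 genes (63.2%), against 69.3% of all genes.

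The share of called genes that were higher moved with the scaling, as it did over all genes. In the values as deposited it was 50% of 10 genes, beside 60.9% of all called genes. It was 66.7% of 9 after rescaling to TPM, beside 70.2%, and 33.3% of 9 after upper-quartile scaling, beside 56.8%. The count also rested on single libraries. It was 0 without TF1-BA replicate 1, 0 without TF1-BA replicate 2, 6 without TF1-BAR replicate 1 and 1, WARS, without TF1-BAR replicate 2, where the share of all genes called was 0.928%, 0.271%, 20.5% and 6.62%. At an unadjusted p under 0.05 the first 2 of these fits had 5 and 6 genes, against 27.1% and 28% of all genes. With no filter on low values WARS, CARS and QARS were called, where 4.69% of all genes were. With no trend of the spread WARS and CARS were called, where 19.9% of all genes were. None of the 10 called genes changed sign in any of the 15 alternatives.

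**Figure D2:**
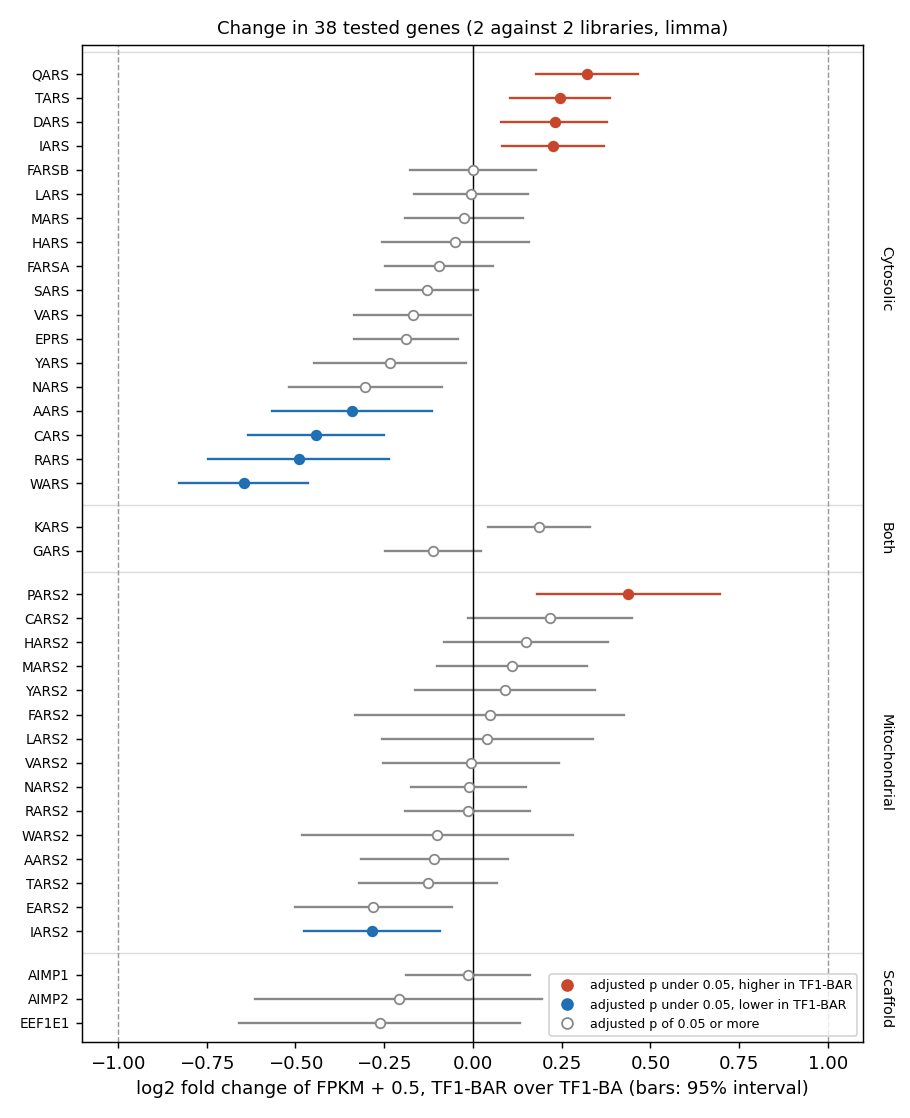
Log2 fold change of FPKM + 0.5, TF1-BAR over TF1-BA, for the 38 genes tested, by compartment, with 95% intervals. Filled points have an adjusted p under 0.05 (red higher, blue lower), open points do not, and the dashed lines at 1 and −1 mark the fold change threshold, which no gene reaches.

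Tryptophanyl-tRNA synthetase showed the largest change. WARS (chromosome 14, 100333788 to 100376805, minus strand, GRCh38 as for all positions given) encodes an enzyme that interferon gamma is known to induce. Its level was 228 and 246 FPKM in the TF1-BA libraries and 157 and 145 FPKM in the TF1-BAR libraries. Both resistant libraries lay far below both sensitive ones. The log2 fold change was −0.65 (SE 0.0705, 95% interval −0.83 to −0.46, limma adjusted p = 0.00774), and the mean level fell by 36.2%. WARS and CARS kept their call under all 11 alternatives that use all 4 libraries. WARS made up 13.7% and 14.4% of the summed FPKM of the 39 genes in TF1-BA and 10.1% and 9.63% in TF1-BAR. The ratio of WARS to GARS, which does not depend on how a library is scaled, was 1.57 and 1.67 in TF1-BA and 1.17 and 1.07 in TF1-BAR. An antisense gene, AL157871.2, shares 723 bases with WARS and had 4.42 and 5.62 FPKM in TF1-BA and 1.84 and 1.58 in TF1-BAR, and the library kit does not mark the strand of a read.

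The other 3 cytosolic genes that fell were RARS, CARS and AARS. RARS, the arginyl enzyme of the multi-synthetase complex (chromosome 5, 168486445 to 168519299, plus strand), had 64.0 and 62.2 FPKM in TF1-BA and 48.9 and 40.9 in TF1-BAR. Its resistant libraries were apart from each other by more than its sensitive ones but did not reach them, and the log2 fold change was −0.49 (SE 0.0987, adjusted p = 0.0262). CARS, the cysteinyl enzyme (chromosome 11, 3000922 to 3057613, minus strand), had 13.5 and 14.5 FPKM in TF1-BA and 10.1 and 10.2 in TF1-BAR. The replicates of CARS lay close together in each line, with a log2 fold change of −0.44 (SE 0.0743, adjusted p = 0.0179). AARS (chromosome 16, 70252295 to 70289543, minus strand) had 130.2 and 152 FPKM in TF1-BA and 112 and 110.2 in TF1-BAR. The 2 sensitive libraries of AARS differed from each other by about as much as the nearer of them from the resistant ones, and its log2 fold change of −0.34 (SE 0.0871, adjusted p = 0.0455) passed in 8 of the 15 alternatives. The call was lost after rescaling to TPM, with no filter on low values, with no trend of the spread and without any 1 of the 4 libraries (adjusted p from 0.0746 to 0.226).

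The 4 cytosolic genes that rose were QARS, TARS, DARS and IARS, and their replicates lay close together. QARS, the glutaminyl enzyme (chromosome 3, 49095932 to 49105135, minus strand), had 52.6 and 53.1 FPKM in TF1-BA and 65.4 and 66.9 in TF1-BAR. This was the largest rise among them, with a log2 fold change of 0.32 (SE 0.0560, adjusted p = 0.0192). TARS, the threonyl enzyme (chromosome 5, 33440696 to 33469539, plus strand), had 76.4 and 74.9 FPKM in TF1-BA and 89.2 and 90.2 in TF1-BAR. Its lines were separated by many times the distance between replicates, although the log2 fold change was only 0.24 (SE 0.0543, adjusted p = 0.0324). DARS, the aspartyl enzyme (chromosome 2, 135906677 to 135986100, minus strand), had 35.9 FPKM in each TF1-BA library and 41.7 and 42.6 in TF1-BAR. IARS, the isoleucyl enzyme (chromosome 9, 92210207 to 92293756, minus strand), had 78.5 and 79.6 FPKM in TF1-BA and 94.1 and 91.1 in TF1-BAR. The log2 fold changes were 0.23 for each, with adjusted p of 0.0442 for DARS and 0.0410 for IARS, and both calls were lost under upper-quartile scaling.

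**Figure D3:**
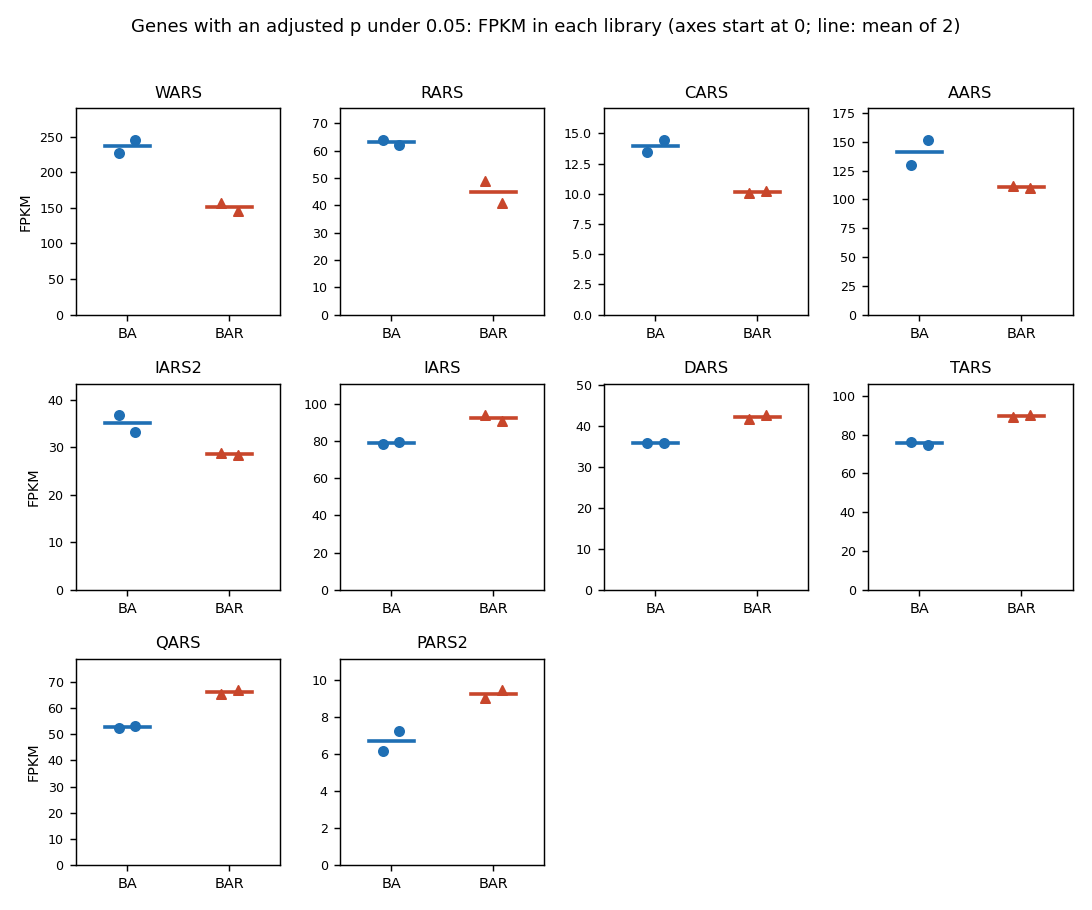
FPKM in each library for the 10 genes with an adjusted p under 0.05, 1 panel per gene, with axes that start at 0. Circles are TF1-BA and triangles TF1-BAR libraries, and a line marks the mean of each pair. In every panel the libraries of TF1-BA and TF1-BAR do not overlap, as in 69.3% of all genes tested. WARS falls from 228 and 246 to 157 and 145 FPKM and QARS rises from 52.6 and 53.1 to 65.4 and 66.9 FPKM.

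Among the other cytosolic genes, 10 did not pass the limma test. Of these, limma voom called NARS, YARS and EPRS lower. It called 15.3% of all genes lower, where limma called 10.5%. NARS, the asparaginyl enzyme, came nearest, with 100.5 and 96.4 FPKM in TF1-BA, 85.3 and 74.5 in TF1-BAR, a log2 fold change of −0.30 and an adjusted p of 0.0542. It passed by limma voom (0.00848), over protein-coding genes only (0.0179), without TF1-BAR replicate 1 (0.0352), with the replicate number as a block (0.0393), with a minimum of 1 FPKM (0.044) and under upper-quartile scaling (0.0466), and in none of the other 9 alternatives. YARS (tyrosyl) had a log2 fold change of −0.23 (adjusted p = 0.0973, and 0.0325 by limma voom). EPRS, a single chain that charges both glutamate and proline, had −0.19 (adjusted p = 0.0668, and 0.0454 by limma voom), and VARS (valyl) −0.17 (adjusted p = 0.109). The values for SARS (seryl), FARSA and HARS (histidyl) were −0.13, −0.096 and −0.050, with adjusted p of 0.149, 0.277 and 0.676. MARS (methionyl), LARS (leucyl) and FARSB, the second phenylalanyl subunit, lay within 0.024 of 0 and had 95% intervals that reached from −0.19 to 0.18 at their widest. Levels in this group ranged from 6.35 FPKM for HARS in TF1-BAR to 118 for FARSA in TF1-BA. MARS shares 982 bases with DDIT3 on the opposite strand, a gene of the ATF4 list that fell in TF1-BAR, and its own level was 47.0 and 48.1 FPKM in TF1-BA and 45.3 and 48.3 in TF1-BAR.

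Of the 2 genes whose products work in the cytosol and in mitochondria, 0 passed the adjusted test in limma or in limma voom. Of all genes, 26.9% and 37.9% did. In each of these fits 1 of the 2 had an unadjusted p under 0.05, against 42.2% and 46.5% of all genes. After quantile normalization both were called in limma, KARS higher (adjusted p = 0.0484) and GARS lower (0.0465), and KARS was also called in TPM (0.0305). Of all genes 25.6% were called after quantile normalization and 29.0% in TPM. KARS, the lysyl enzyme and a member of the complex, had 55.5 and 56.6 FPKM in TF1-BA and 63.9 and 63.8 in TF1-BAR, with a log2 fold change of 0.19 (95% interval 0.043 to 0.33, adjusted p = 0.0655). GARS had 144.9 and 147 FPKM in TF1-BA and 134 and 136 in TF1-BAR, with a log2 fold change of −0.11 (adjusted p = 0.170). The libraries of the 2 lines did not overlap in either gene, as in 69.3% of all genes tested.

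In the mitochondrial set 15 of 16 genes were tested, of which 1 rose and 1 fell, against 16.3% and 10.5% of all genes, and the median log2 fold change was −0.005. PARS2, the mitochondrial prolyl enzyme (chromosome 1, 54756898 to 54764514, minus strand), had 6.16 and 7.22 FPKM in TF1-BA and 9.0 and 9.44 in TF1-BAR. It was the largest rise of all 38 genes, with a log2 fold change of 0.44 (SE 0.10, 95% interval 0.18 to 0.70, adjusted p = 0.0347). IARS2, the mitochondrial isoleucyl enzyme (chromosome 1, 220094102 to 220148041, plus strand), had 36.8 and 33.3 FPKM in TF1-BA and 28.8 and 28.4 in TF1-BAR, a log2 fold change of −0.28 (SE 0.0741, adjusted p = 0.0477). In both genes the lines did not overlap, as in 69.3% of all genes tested. Both lost their calls with no filter on low values (adjusted p = 0.0935 for PARS2 and 0.1 for IARS2), with no trend of the spread (0.0602 and 0.0975) and whenever 1 library was left out, and IARS2 also after rescaling to TPM (0.0867).

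The other 13 mitochondrial genes tested did not pass the limma test. EARS2 (glutamyl) had 6.33 and 5.83 FPKM in TF1-BA and 4.81 and 5.03 in TF1-BAR, with a log2 fold change of −0.28 and an adjusted p of 0.0694, which became 0.0319 by limma voom, 0.0409 over protein-coding genes only and 0.042 after quantile normalization. TARS2, AARS2 and WARS2 had log2 fold changes of −0.13, −0.11 and −0.10, with adjusted p of 0.263, 0.354 and 0.645. RARS2, NARS2, VARS2, LARS2 and FARS2 lay between −0.014 and 0.047, with adjusted p from 0.816 to 0.977. On the positive side, YARS2 had 0.091, MARS2 0.11, HARS2 0.15 and CARS2 0.22, with adjusted p of 0.523, 0.356, 0.268 and 0.134. The mitochondrial genes together made up 9.84% and 9.16% of the summed FPKM of the 39 genes in TF1-BA and 10.0% and 10.4% in TF1-BAR.

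Cytosolic and mitochondrial enzymes for the same amino acid could be set side by side in 15 pairs. The cytosolic gene had the higher FPKM in every library in 14 of the 15. The exception was histidine, where the ratio of HARS to HARS2 was 1.17 and 1.09 in TF1-BA and 1.07 and 0.89 in TF1-BAR. The largest ratio was that of SARS to SARS2, which reached 279. HARS and HARS2 lie head to head and share 599 bases on opposite strands, and SARS2 shares 349 bases with MRPS12 on the opposite strand.

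The isoleucyl pair was the 1 of these in which both genes were called, and in it the cytosolic gene rose while the mitochondrial gene fell. The ratio of IARS to IARS2 was 2.14 and 2.39 in TF1-BA and 3.26 and 3.20 in TF1-BAR. Within a library such a ratio does not depend on scaling, and the lines were well separated. In 5 further pairs exactly 1 gene was called, where 26.9% of all genes tested were. AARS, RARS, CARS and WARS fell and TARS rose, each with a mitochondrial counterpart that did not pass the limma test. The difference in change between the genes of a pair was not tested. The ratio of CARS to CARS2, for example, was 4.15 and 4.70 in TF1-BA and 2.62 and 2.79 in TF1-BAR, and that of TARS to TARS2 was 8.04 and 7.91 against 10.7 and 10.1. In 6 of the 14 pairs with both genes tested, the log2 fold changes had the same sign.

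The multi-synthetase complex holds 8 of the enzyme genes and the 3 scaffold genes. Of its 11 genes QARS, IARS and DARS rose and RARS fell, where 16.3% of all genes rose and 10.5% fell, and the median log2 fold change was −0.012. IARS and DARS each passed in 7 of the 15 alternatives, and neither passed under upper-quartile scaling, when the replicate number entered as a block or without any 1 of the 4 libraries. The summed FPKM of the 11 genes was 517 and 519.9 in TF1-BA and 529.6 and 520.0 in TF1-BAR, so that the lines differed by no more than a few per cent. RARS and QARS, neighbours in the complex that moved in opposite directions, had a ratio of 1.22 and 1.17 in TF1-BA and 0.748 and 0.611 in TF1-BAR, which places RARS above QARS in sensitive cells and below it in resistant cells. Of the 3 scaffold genes 0 passed the adjusted test, and 0 had an unadjusted p under 0.05 in limma or in limma voom. Of all genes 42.2% and 46.5% had such an unadjusted p. AIMP1 had 15.0 and 15.6 FPKM in TF1-BA and 15.3 and 15.0 in TF1-BAR, with a log2 fold change of −0.012 (95% interval −0.19 to 0.16). AIMP2 and EEF1E1 had log2 fold changes of −0.21 and −0.26 with wider intervals, −0.61 to 0.20 and −0.66 to 0.13, and their libraries overlapped. AIMP2 shares 1591 bases with EIF2AK1 on the opposite strand, a gene that was higher in TF1-BAR.

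The 12 cytosolic or dual genes outside the complex included 1 that rose, TARS, and 3 that fell, WARS, CARS and AARS. Of all genes 16.3% rose and 10.5% fell. The median log2 fold change of the 12 genes was −0.15, with 10 below 0 and 2 above. Over the 18 cytosolic genes it was −0.11, with 13 below 0 and 5 above. The summed FPKM of the 12 genes was 982.5 and 1030 in TF1-BA and 864 and 833 in TF1-BAR. Without WARS it was 755 and 784 in TF1-BA and 707 and 688 in TF1-BAR, so that the sum remained lower in resistant cells. Class I and class II enzymes each held changes in both directions. Of the 18 class I genes 2 rose and 4 fell, and of the 16 class II genes tested 3 rose and 1 fell, where 16.3% of all genes rose and 10.5% fell.

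Other genes that respond to ATF4 were examined because the synthetase genes are counted among its targets. Of 29 such genes listed (amino acid synthesis and transport, stress factors and XPOT, the export factor for tRNA, with no synthetase among them), 25 were tested, 0 were upregulated and 13 (52.0%) were downregulated, against 10.5% of all genes. By limma voom 0 were higher and 15 lower, where 22.6% of all genes were higher and 15.3% lower. At an unadjusted p under 0.05 the number higher was 0 in limma, 1 in limma voom, after quantile normalization and with the replicate number as a block, and 3 in TPM. The median log2 fold change was −0.34. DDIT3, which encodes the stress factor CHOP, had 41.6 and 45.9 FPKM in TF1-BA and 10.9 and 9.93 in TF1-BAR, a log2 fold change of −2.02 (SE 0.0868, limma adjusted p = 0.00174). DDIT4, an inhibitor of mTORC1 signalling, had 237 and 225 FPKM in TF1-BA and 99.7 and 107 in TF1-BAR, with a log2 fold change of −1.15 (adjusted p = 0.00307). These were the 2 genes of the list past both thresholds, and in each the resistant level was under 50% of the sensitive one.

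ASNS, the asparagine synthetase, had 179.9 and 186 FPKM in TF1-BA and 103 and 85.6 in TF1-BAR, a log2 fold change of −0.96 (adjusted p = 0.00705). CTH, an enzyme of cysteine synthesis, fell by 0.93 on the log2 scale (adjusted p = 0.00409). The 9 other genes that fell were CHAC1, SLC7A11, MTHFD2, PSAT1, SESN2, PSPH, VLDLR, JDP2 and ATF3, with log2 fold changes from −0.78 in CHAC1 to −0.34 in ATF3. ATF4 itself had 291 and 299 FPKM in TF1-BA and 291 and 277 in TF1-BAR, with a log2 fold change of −0.055 (95% interval −0.20 to 0.089, adjusted p = 0.496), and its protein was not measured here. TRIB3, another known ATF4 target, had a log2 fold change of 0.18 (adjusted p = 0.197). The number called fell to 2 without TF1-BA replicate 1, 1 without TF1-BA replicate 2 and 5 without TF1-BAR replicate 2, and was 12, of which 1 was higher, without TF1-BAR replicate 1. In these 4 fits 0.928%, 0.271%, 6.62% and 20.5% of all genes were called. Thus 13 of 25 genes of this list fell, while the synthetase and scaffold genes held 5 that fell and 5 that rose among 38. The difference between the lists was not tested.

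Among the kinases of eIF2, their regulators and EIF2S1, the eIF2 subunit that the kinases phosphorylate, 7 genes were tested. In limma 1 rose (14.3%, against 16.3% of all genes). EIF2AK1, the haem-regulated kinase, had 38.1 and 38.7 FPKM in TF1-BA and 52.0 and 59.1 in TF1-BAR, a log2 fold change of 0.52 (limma adjusted p = 0.0144). EIF2AK1 passed in 12 of the 15 alternatives. Its call was lost with no filter on low values (adjusted p = 0.0553) and when either TF1-BA library was left out. EIF2AK4, the kinase that senses uncharged tRNA, had 5.93 and 5.59 FPKM in TF1-BA and 6.08 and 6.21 in TF1-BAR, with a log2 fold change of 0.086 (adjusted p = 0.457). EIF2AK2, EIF2AK3, EIF2S1, GCN1 and IMPACT did not pass the limma test. EIF2AK2 had a log2 fold change of 0.32 (limma adjusted p = 0.0511) and IMPACT −0.30 (0.07). By limma voom EIF2AK2 was called higher (adjusted p = 0.00765) and IMPACT lower (0.0184). In that fit 22.6% of all genes were higher and 15.3% lower.

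**Figure D4:**
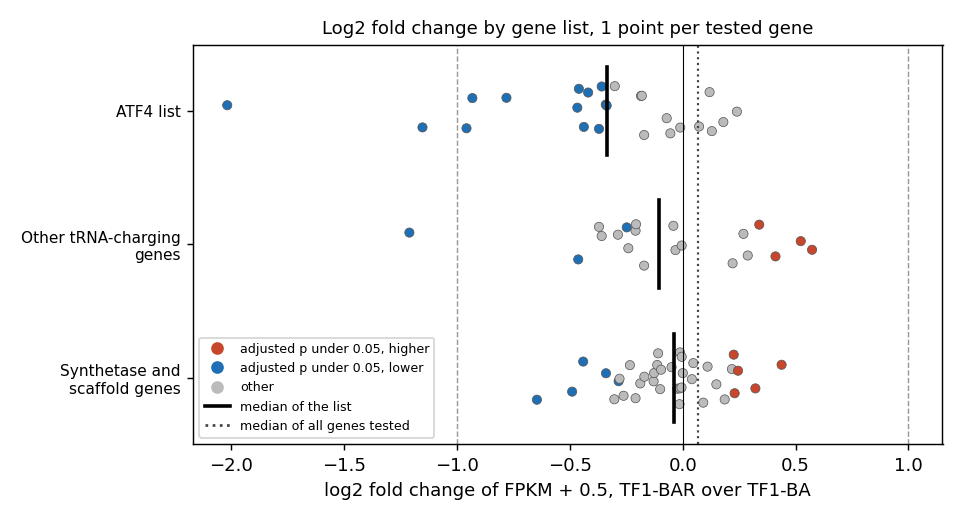
Log2 fold change of FPKM + 0.5, TF1-BAR over TF1-BA, with 1 point per tested gene for the ATF4 list (25 genes), the other genes of tRNA charging and delivery (20) and the synthetase and scaffold genes (38). Red and blue points have an adjusted p under 0.05, solid bars are list medians (−0.34, −0.11 and −0.037), and the dotted line is the median of all genes tested, 0.066.

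The other genes of tRNA charging and delivery changed in each direction, at shares near those of all genes. The list includes TARSL2, a threonyl synthetase gene whose symbol falls outside the name rule, and XPOT, which is also in the ATF4 list. Of 22 listed, 20 were tested, 4 (20%) rose against 16.3% of all genes and 3 (15.0%) fell against 10.5%, with a median log2 fold change of −0.11. DTD1, which removes D-amino acids from tRNA, had 9.06 and 8.80 FPKM in TF1-BA and 13.7 and 13.4 in TF1-BAR, with a log2 fold change of 0.57 (adjusted p = 0.00911). QRSL1, a subunit of the mitochondrial complex that makes glutaminyl-tRNA from glutamyl-tRNA, had 9.99 and 9.46 FPKM in TF1-BA and 14.4 and 14.0 in TF1-BAR, with a log2 fold change of 0.52 (adjusted p = 0.0114). Of the elongation factor genes, EEF1B2 rose by 0.41 (adjusted p = 0.0103) and EEF1A1, which brings charged tRNA to the ribosome, by 0.34 (adjusted p = 0.0132) on the log2 scale. The value for EEF1A1 was 0.61 after quantile normalization, and it passed in 10 of the 15 alternatives, with an adjusted p of up to 0.319.

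EEF1A2, the tissue-restricted counterpart of EEF1A1, was the gene of this list past both thresholds, with 3.37 and 3.35 FPKM in TF1-BA and 1.04 and 1.3 in TF1-BAR, a log2 fold change of −1.21 (adjusted p = 0.00696). MTFMT, which formylates the mitochondrial initiator tRNA, fell by 0.46 (limma adjusted p = 0.0417) and TUFM, the mitochondrial elongation factor, by 0.25 (0.0355) on the log2 scale. Both calls were lost in TPM (adjusted p = 0.0538 for MTFMT and 0.0721 for TUFM), with no filter (0.112 and 0.0764) and with no trend (0.0628 and 0.0984). In TPM 4 genes of the list rose and 1 fell, where 20.3% of all genes rose and 8.63% fell. No member of this list was called without TF1-BA replicate 1 or without TF1-BA replicate 2, where 0.928% and 0.271% of all genes were called. In each of these fits 6 genes had an unadjusted p under 0.05, against 27.1% and 28% of all genes. Without TF1-BAR replicate 2, 3 were called, against 6.62% of all genes.

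Because reads were not counted by strand, overlapping genes limit how firmly single values can be read. Of the 39 genes, 28 overlap another gene in the table, and 16 overlap one on the opposite strand that reached at least 1 FPKM in a library. In bulk RNA a lower level in every cell and a smaller share of expressing cells cannot be told apart. With 2 libraries against 2, an exact permutation test of a single gene cannot give a two-sided p below 0.333, so the calls depend on limma's estimate of the spread, to which all genes contribute.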

How the data were processed

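RNA of 2 TF1-BA and 2 TF1-BAR libraries was sequenced by the authors as paired ends from a kit that does not mark strand. The deposited values are FPKM per library and gene, made by the authors with TopHat2 2.0.13 and Cufflinks and Cuffdiff 2.2.0 at default parameters on GRCh38, per the submitters' processing notes and the study's methods. The annotation release is not given in the sources used here. FPKM carry no counts, so precision was judged from recovered fragments: library sizes and gene lengths were sought at which the 30853 genes above 0 gave whole numbers (tolerance 0.001) in all 4 libraries. 14220 did so at the GENCODE 44 exon length, 16632 at a fitted length and 0 of 300 with wrong library sizes. The smallest fitting numbers were kept, and such numbers cover counting error only.

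Samples were grouped by their labels. log2(FPKM + 0.5) was compared with limma 3.58.1 (trended eBayes) in R 4.3.3 over the 15519 genes with a mean of at least 0.5 FPKM, with Benjamini-Hochberg adjustment over all of them. The code was tested on simulated data. The alternatives were pseudocounts of 1 and 0.1, a minimum of 1 FPKM or none, upper-quartile, TPM and quantile scaling, no trend, protein-coding genes only, limma voom, a replicate block, and leaving out each library. Of the 40 genes found by name, 1 is not reported here and is left out of every count of them. Every other one is named; of the other lists, genes past both thresholds and the 4 with the largest called change in each direction are named, and any other gene named was chosen after its values were seen. The members and lists were chosen with earlier results of these data known. Promoters were searched on both strands in RefSeq windows. Protein sequences were not used here.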

Additional observations from a re-analysis of the deposited data

How the results depend on the processing

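The 10 synthetase genes called became 3 with no filter on low values and 2 with no trend of the spread, and 0 to 6 when 1 library was left out, where 4.69%, 19.9% and 0.271% to 20.5% of all genes were called. Under the other alternatives 9 to 14 were called, the 14 by limma voom, where 37.9% of all genes were, and with the replicate block 9, of which 3 rose and 6 fell. The replicate block lost IARS and DARS and added NARS; replicate numbers are shared in the labels only, and deviations of same-numbered libraries correlated at 0.0646 over 15519 genes. The number past both thresholds was 0 throughout. The median log2 fold change of −0.037 was −0.062 under upper-quartile scaling, 0.030 in TPM and −0.075 after quantile normalization, and −0.065 to −0.041 with 1 library left out. The 13 ATF4 genes called became 5 with no filter, 6 with no trend and 1 to 12 with 1 library left out. The 7 called partner genes of tRNA charging became 4 with no filter, 4 with no trend and 0 to 8 with 1 library left out. With 3 libraries 1 line has a single library that is assumed to vary like the other. The cause of these shifts was not tested. SARS2, under the filter and not tested, had 13 to 26 recovered fragments per library.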
